A study of Mus musculus with 56 samples.

Results

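The inbred mouse strain 129S1/SvImJ is described here against 26 other inbred strains, in prefrontal cortex and in nucleus accumbens. Its members were found by the strain label: 2 of the 56 arrays of the series, 1 per region, held 129S1/SvImJ RNA, and 52 arrays of the 26 strains with both regions were the comparison. A further 2 arrays, of MRL/MpJ and NZO/HILtJ, had cortex only and entered no main comparison. The study profiled gene expression of inbred strains on 1-colour oligonucleotide arrays. Each array, in 129S1/SvImJ as in the other strains, held RNA pooled from 3 untreated male mice of 8 to 10 weeks. The series' design text places the cortex sample in a wedge next to the corpus callosum, a myelinated tract, and the accumbens sample in a punch next to the anterior commissure. With 1 pool per strain and region, the strain and its pool cannot be told apart, and every p-value measures only the spread among these arrays.

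Strains related to 129S1/SvImJ gave rise to many of the embryonic stem cell lines used for gene targeting, so their alleles sit beside the altered gene in many knockout mice. Inbred strains differ by fixed sequence variants, and a variant that alters a transcript is carried by every tissue that expresses the gene. A probe set is a group of short probes that reads a stretch of a transcript, so probe sets of the same gene can read different ends or isoforms of it. Myelin, the membrane that oligodendrocytes wrap around axons, is dense in tracts and sparse in the cortical layers.

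The 129S1/SvImJ arrays fitted their region labels. The mean of genes of striatal spiny neurons minus that of cortical excitatory neurons was -3.21 log2 units in the 129S1/SvImJ cortex array, against -3.38 to 0.97 in other cortex arrays. It was 4.68 in the 129S1/SvImJ accumbens array, against 2.02 to 5.06 in other accumbens arrays. The cortex array of MA/MyJ and the accumbens array of BALB/cByJ stood apart in that measure, and the main counts are also given without these and 3 strains low in the same way (CE/J, NON/LtJ and WSB/EiJ). The 129S1/SvImJ cortex array also stood at an edge in its overall level: the median of the features used was 7.02, the highest of 27, against 6.83 to 7.0 in the others. Its median linear intensity over all probe sets was instead the lowest of the 27 cortex arrays, at 9.93, next to 9.933. Its median deviation over all features was 0.07 in cortex, with 0.02 in accumbens. The signal of actin's 3′ end over its 5′ end, a sign of RNA integrity, was 2.04 log2 units in the 129S1/SvImJ cortex, the second of 27 from the top (others 1.31 to 2.62), and its part in the results was not tested. H2-Ea, a class II histocompatibility gene that some H2 haplotypes do not express, was lowest of 27 in both regions of 129S1/SvImJ, at 6.34 in cortex and 5.43 in accumbens, against 6.51 and 5.67 in the next lowest arrays.

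Of 10684 features measured above background (8811 named genes and 1873 probe sets with no gene symbol or several), 64 lay at least 1 log2 unit from the median of the other 26 strains in both regions. In 129S1/SvImJ, 24 of them were higher, or 0.225% of all features, among them 11 named genes, and 40 were lower, or 0.374%, among them 21 named genes. No feature was that far away in opposite directions. These 64 were picked on their own deviations, so their counts describe them and support nothing. The same rule applied to each of the other strains gave 23 to 109 features with a median of 56.5, the most in the wild-derived WSB/EiJ. Without MA/MyJ, BALB/cByJ, CE/J, NON/LtJ and WSB/EiJ, 20 features were higher and 38 lower.

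**Figure D1:**
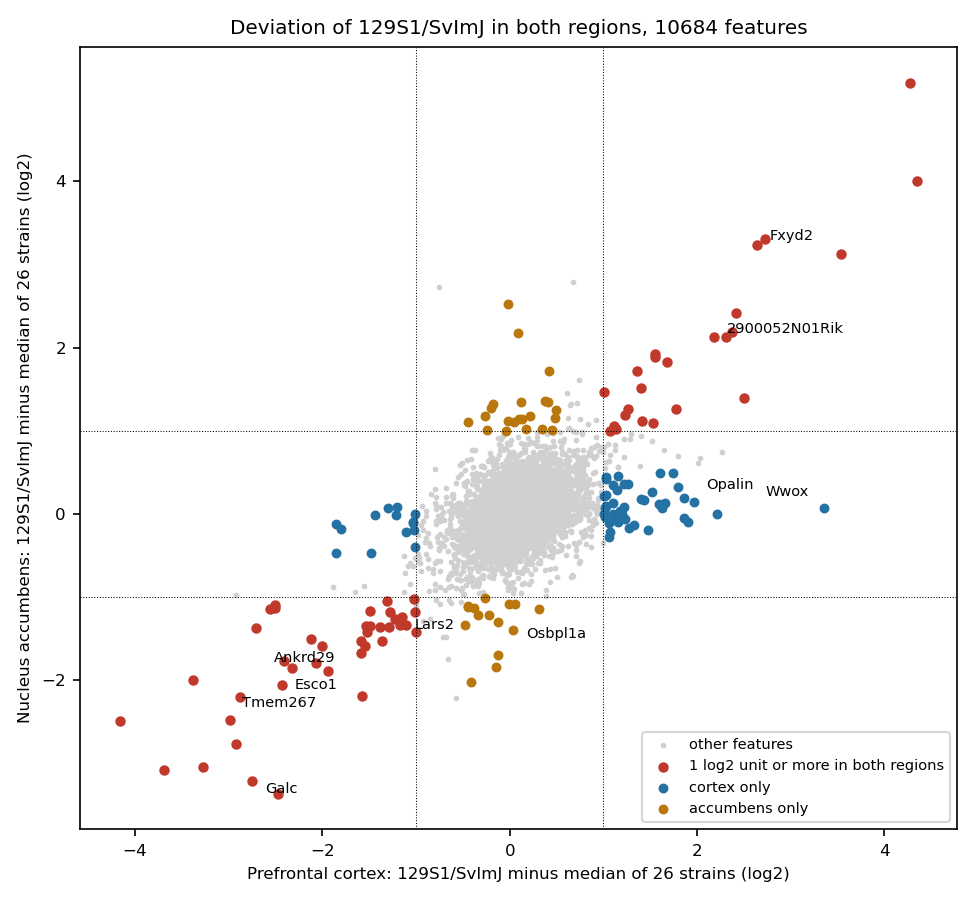
Deviation of 129S1/SvImJ from the median of the 26 other strains in prefrontal cortex (x axis) and nucleus accumbens (y axis), in log2 units, 1 point per feature; dotted lines mark 1 log2 unit. The 64 red points lie in the upper right and lower left corners, and blue points mark features moved in cortex only, which lie mostly on the right.

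Across all features, limma tested the mean of both 129S1/SvImJ arrays against that of the other strains in a model with strain as a block. It called 202 features higher (1.89% of those tested) and 126 lower (1.18%) at an adjusted p under 0.05. That split depended on scaling: it was 126 higher and 160 lower after quantile normalization over all arrays, and 112 and 213 after centring each array. Without the 5 strains named above it was 360 and 173, and with no strain block 25 and 22. All 24 higher and 37 of the 40 lower members were among the calls, Arc being the named exception. The members were picked on the values that this contrast averages, so their choice largely fixes that overlap. The model with strain as a block asks whether both regions of 129S1/SvImJ moved together beyond the noise between regions. A stricter question is whether 129S1/SvImJ lay outside the spread of the other 26 strain means. That test, also in limma, called 7 features higher (0.0655%) and 8 lower (0.0749%), and all 15 were among the calls of the first. It called 0 of the 24 higher members and 5 of the 40 lower ones.

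By its representative probe set, Esco1, which encodes an acetyltransferase that acts on the cohesin ring, was the gene set furthest apart. Its second probe set went the other way, as given below. The representative read 4.81 in the cortex and 5.18 in the accumbens of 129S1/SvImJ (log2 intensity). The lowest, median and highest of the other 26 strains were 6.98, 7.24 and 7.53 in cortex and 6.80, 7.24 and 7.52 in accumbens. The 129S1/SvImJ value thus fell far below a narrow band of strains in both regions, at least 4.73-fold under the median in cortex, where the bound is against log2 5, the filter level used here, and 4.16-fold in accumbens. The difference of the strain means was -2.24 (SE 0.13, limma adjusted p = 5.32e-12 against the spread of strain means).

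Lars2, the mitochondrial leucyl-tRNA synthetase, was at 5.38 in the cortex of 129S1/SvImJ, against 6.15, 6.53 and 6.98 in the others (lowest, median and highest), and at 5.93 in its accumbens, against 6.14, 7.17 and 7.43. It was the lowest of 27 in both regions, 2.22-fold and 2.36-fold below the medians (difference -1.18, SE 0.22, adjusted p = 0.0108). Ankrd29, an ankyrin repeat gene, was at 4.15 in the 129S1/SvImJ cortex, against 5.55, 5.73 and 6.03, and at 3.41 in its accumbens, against 4.70, 5.09 and 6.80 (difference -1.72, SE 0.22, adjusted p = 0.000125). No other strain overlapped 129S1/SvImJ, although with its arrays below log2 5 the fold is only bounded, at 1.66-fold or more in cortex. Unnamed probe sets 1437987_at and 1453044_at were the other members below all 26 strains by this test, with differences of -1.25 and -1.27.

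Other genes passed the stricter test with a shift under 1 log2 unit in at least 1 region. Slc37a4, the transporter that carries glucose 6-phosphate into the endoplasmic reticulum, was at 5.98 in the 129S1/SvImJ cortex, against 5.18, 5.37 and 5.65 in the others. In its accumbens it was at 4.91, against 3.04, 3.46 and 4.08, so both arrays stood above every other strain (difference 1.02, SE 0.15, adjusted p = 0.000553). Every accumbens value was below log2 5, so no fold is given there, and in cortex it was 1.53-fold above the median. Dlat, the acetyltransferase core of the pyruvate dehydrogenase complex, was at 8.15 in the cortex of 129S1/SvImJ, against 6.97, 7.39 and 7.60. Its accumbens value was 8.11, against 6.54, 7.13 and 7.5, which put 129S1/SvImJ 1.70-fold and 1.98-fold above the medians (adjusted p = 0.013).

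Ppp2r1b, a scaffold subunit of protein phosphatase 2A, was higher too, at 5.72 in 129S1/SvImJ cortex against a highest other value of 5.54, and at 5.40 in accumbens against 4.97 (adjusted p = 0.00967). Adgrl3, the adhesion receptor latrophilin 3, was at 7.99 and 8.49 in the 2 regions of 129S1/SvImJ, above the highest others at 7.73 and 8.08 (adjusted p = 0.00685). Mrps2, a protein of the small mitochondrial ribosome subunit, was at 7.73 and 7.81, above 7.49 and 7.63 (adjusted p = 0.0176). These shifts were small, 1.33-fold to 1.57-fold for Adgrl3 and 1.44-fold and 1.35-fold for Mrps2, but no other strain reached them. The contrast call of Adgrl3 was lost without probe sets prone to cross-hybridisation, as given below. Ldb3, which encodes a Z-line protein of muscle, was lower, at 3.29 in cortex against a lowest other value of 3.57 and at 2.93 in accumbens against 4.28, both below log2 5 (adjusted p = 0.00239). The remaining calls were Osbpl1a, described below, and the unnamed probe sets 1447156_at and 1439291_at, which were higher, and 1447124_at, which was lower. For the genes of this test that were not members, other probe sets are described only for Osbpl1a.

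**Figure D2:**
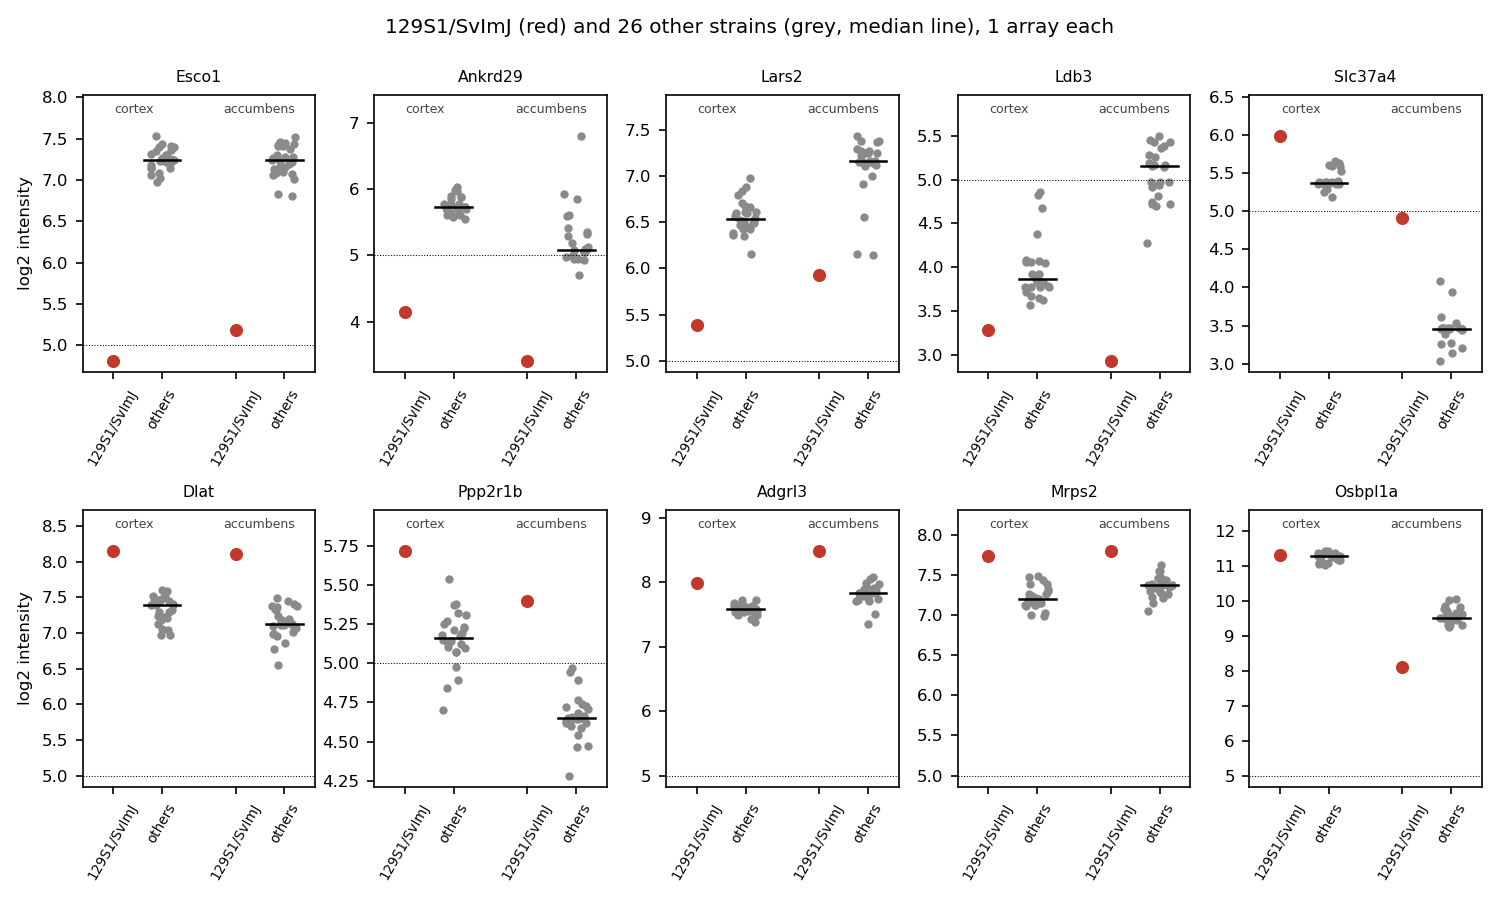
Log2 intensity of 10 named genes in 129S1/SvImJ (red, 1 array per region) and the 26 other strains (grey, 1 array each, black line at their median); each panel has cortex on the left, accumbens on the right and its own y axis, and the dotted line is log2 5. In 9 of the 10 panels the red point lies outside the grey points in both regions, and for Osbpl1a it does so in accumbens only.

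Among the named higher members, 2900052N01Rik, a RIKEN transcript, had the largest smaller-of-both-regions deviation once values below log2 5 were raised to 5. It was at 8.10 in the cortex of 129S1/SvImJ, against 3.60, 5.92 and 6.77 in the others, and at 10.02 in its accumbens, against 6.18, 7.89 and 8.75. It was 4.54-fold and 4.36-fold above the medians and higher than in any other strain (contrast with strain block 2.21, SE 0.27, limma adjusted p = 2.18e-06; against the spread of strain means the adjusted p was 0.12). Pcdhb3, a clustered protocadherin for cell adhesion, was also highest of 27 in both regions of 129S1/SvImJ. Its cortex value was 5.79, against 2.90, 4.42 and 5.57, and its accumbens value 6.35, against 2.71, 4.63 and 5.62, at least 1.72-fold and 2.55-fold above the medians. These were the 2 named higher members that no other strain shared, where sharing means that the other strain was at least 1 log2 unit away in the same direction in both regions.

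Membrane and transport genes came next. Fxyd2, a regulatory subunit of the sodium pump, was at 6.90 in the 129S1/SvImJ cortex, against 4.02, 4.26 and 6.81, and at 8.39 in its accumbens, against 4.66, 5.16 and 8.42. It was 9.44-fold above the median in accumbens, shared by C57BR/cdJ and KK/HlJ, and only BTBR T+ tf/J was higher there. For Sdc4, a cell-surface heparan sulfate proteoglycan, the representative probe set was at 7.05 and 6.87 in 129S1/SvImJ, against medians of 4.74 in both regions. On that probe set 5 other strains shared the high level, and a second probe set went the other way, as given below. Osbpl3, a lipid-transfer protein of the oxysterol-binding family, was at 7.45 and 6.07 in cortex and accumbens of 129S1/SvImJ, against medians of 6.05 and 4.56. Enpp5, of the ectonucleotide pyrophosphatase family, was at 9.21 and 9.37, against 7.80 and 8.26, the highest of 27 in cortex and the sixth in accumbens.

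Serpina3n encodes a serpin that astrocytes raise when reactive. It was at 8.15 in the 129S1/SvImJ cortex and 5.78 in its accumbens, against medians of 5.65 and 4.39. The other strains spanned 3.09 to 8.39 in cortex, so 129S1/SvImJ stood among several high strains, and the contrast only just passed (adjusted p = 0.0494). That call was lost under 5 changes of filter, scaling, probe sets or block, with adjusted p values of 0.0524 to 0.611. Of the 13 astrocyte genes tested, Serpina3n was the only one at least 1 log2 unit away in the 129S1/SvImJ cortex (0.852% of all features were that much higher and 0.618% lower), and their median deviation there was 0.06. Rbm45, an RNA-binding protein, was at 8.13 and 8.03 in 129S1/SvImJ, against 6.58 and 6.10, shared by 8 other strains. Timmdc1, an assembly factor of respiratory complex I, was at 6.72 and 6.36, against 5.45 and 5.10, shared by NOD/LtJ and NON/LtJ. A930005H10Rik was at 6.71 and 6.44, against 5.48 and 5.25. Pam, which amidates neuropeptides, was at 5.91 and 5.06, against 4.77 and 4.04.

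The lower members besides Esco1, Lars2 and Ankrd29 were mostly shared with other strains. Cd59a, which blocks the membrane attack complex of complement, was the named exception: it was the lowest of 27 in both regions of 129S1/SvImJ, at 4.02 in cortex, against 4.42, 5.04 and 6.59, and at 3.84 in accumbens, against 4.23, 4.87 and 7.0. It was dim in most strains and had no call against the spread of strain means (adjusted p = 0.702). Galc, the lysosomal enzyme that degrades the myelin lipid galactosylceramide, was at 2.58 in cortex and 2.69 in accumbens of 129S1/SvImJ, against medians of 5.33 and 5.90, and 10 other strains shared the low level, 2 of all strains lying below 129S1/SvImJ in cortex and 3 in accumbens. Its fold is at least 1.26-fold in cortex and 1.87-fold in accumbens, bounded because 129S1/SvImJ was not above the filter.

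Genes of transport and secretion included Dctn5, a dynactin subunit, at 6.23 and 6.05 in cortex and accumbens of 129S1/SvImJ, against medians of 7.52 and 7.40. Of the other strains, WSB/EiJ alone shared that low level. Scg5, the chaperone of a prohormone convertase, was bright, at 10.37 and 9.95, against 11.38 and 11.13, shared by BUB/BnJ and C57BL/6J. Slc15a2, a peptide transporter, was at 5.58 and 5.30, against 6.68 and 6.63, shared by C57BL/6J, MA/MyJ and NZW/LacJ. Pi4kb, a phosphatidylinositol kinase of the Golgi, was at 4.55 and 4.80, against 6.08 and 6.22. For Pnma2, a neuronal protein derived from a retrotransposon gag gene, the representative probe set was at 3.89 and 4.31 in 129S1/SvImJ, against 6.80 and 7.08. On that probe set 7 other strains shared the low level, and a second probe set went the other way, as given below.

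Regulators of transcription and RNA followed. Zfp945 and Zfp40, both zinc finger genes, were at 3.25 and 4.25 in the cortex of 129S1/SvImJ, against medians of 5.73 and 5.64, and at 2.62 and 4.95 in its accumbens, against 5.98 and 6.31. Kantr, a long non-coding RNA, was at 4.95 and 5.40, against 7.02 and 7.19, shared by 5 strains. Zcchc3, a nucleic acid sensor cofactor with zinc knuckles, was at 3.52 and 4.0, against 5.07 and 5.60, shared by WSB/EiJ. G2e3, a ubiquitin ligase, was at 3.58 and 3.94, against 5.12 and 5.29, shared by SM/J and WSB/EiJ. In all 5 genes the 129S1/SvImJ value was below log2 5 in cortex, so the cortex folds are lower bounds, 1.05-fold for Zcchc3 to 4.05-fold for Kantr.

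The other lower members were membrane, synaptic or uncharacterised genes. Tmem267 was at 3.58 and 4.63 in 129S1/SvImJ, against 6.57 and 7.11, and 4833420G17Rik was at 5.90 and 6.38, against 7.39 and 7.72. Ptprg, a receptor tyrosine phosphatase, was at 5.16 and 6.42, against 6.66 and 7.58, and Palm2, of the paralemmin family, was at 4.66 and 3.32, against 6.98 and 5.18. 2010315B03Rik was at 4.25 and 5.05, against 6.20 and 6.94, shared by CBA/J and DBA/2J, of which CBA/J was lower than 129S1/SvImJ. Arc, an immediate early gene of synaptic plasticity, was at 8.03 and 5.23, against 9.03 and 6.64, and did not pass the contrast (adjusted p = 0.146).

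The 32 members with no gene symbol or several included the largest deviations. Probe set 1436240_at was at 8.86 and 9.24 in cortex and accumbens of 129S1/SvImJ, against medians of 4.59 and 4.06, at least 14.5-fold and 19-fold higher, and 6 other strains shared it. Probe set 1440807_at was at 2.73 and 3.91, against 6.89 and 6.40, shared by BTBR T+ tf/J, CE/J and P/J. Probe sets 1428301_at and 1452731_x_at were highest of 27 in both regions of 129S1/SvImJ, with KK/HlJ and PL/J close behind for both.

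Members just inside the 1 log2 limit, by the smaller of both deviations, were 1435719_at and 1435353_a_at at 1.00, Arc at 1.00 and Scg5 at 1.01. Those just outside were 1427820_at at 0.997, Abcb10 at 0.996, Cthrc1 at 0.98 and Nudt19 at 0.957. With values under log2 5 raised to 5, 17 of the 24 higher and 20 of the 40 lower members still lay 1 log2 unit away.

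Every probe set of the named members was compared, and those of the same gene often disagreed. The 11 higher genes had 11 other probe sets, of which 2 passed the filter, and the 21 lower genes had 30, of which 14 passed. For 2900052N01Rik the second probe set, 1457495_at, moved like the first, at 6.36 in the cortex of 129S1/SvImJ, against 3.71, 4.15 and 5.07, and at 8.48 in its accumbens, against 4.27, 6.02 and 7.29. For Dctn5 the second, 1458247_s_at, was lower as well, at 6.42 and 6.32, against medians of 7.17 and 7.38, although its cortex deviation was under 1. No other probe set of a lower gene that passed the filter was 1 log2 unit lower in both regions.

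In 3 genes the second kept probe set deviated the other way by more than 0.5 log2 units in both regions. Esco1 probe set 1424325_at was at 6.41 in the cortex of 129S1/SvImJ, against 4.41, 5.44 and 6.11, and at 7.83 in its accumbens, against 5.39, 6.41 and 7.08. It was thus the highest of 27 in both regions where the representative was the lowest. Pnma2 probe set 1435618_at was likewise highest, at 6.99 in cortex, against 4.72, 5.38 and 6.51, and at 7.41 in accumbens, against 5.75, 6.39 and 7.29. Sdc4 probe set 1417654_at was at 4.61 and 3.25 in 129S1/SvImJ, against medians of 5.36 and 4.34, the reverse of the representative. Which probe set follows the total RNA of these genes was not tested, and no direction is given for Esco1, Pnma2 or Sdc4 beyond the probe set named. Their places among the members rest on the representative probe set. Sequence variants of 129S1/SvImJ under the probes were not looked up, for these or any other genes.

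Further second probe sets lay near the strain medians. Ptprg had 3, 1434360_s_at, 1450122_at and 1456070_at, with cortex deviations of 0.16, -0.20 and 0.38 and accumbens deviations of 0.46, -0.04 and 0.43. Kantr had 2, 1428499_at and 1441816_at, with deviations of 0.34 and -0.06 in cortex and 0.40 and 0.08 in accumbens. Zcchc3 probe set 1428401_at deviated by -0.08 and -0.00. In these genes the low value was thus read by 1 probe set of several, and whether it reflects less RNA was not tested. Ankrd29 probe set 1438756_at was lower by less, at 4.93 and 3.54 in 129S1/SvImJ, against medians of 5.22 and 4.09.

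The zinc finger gene Zfp40 had 1421251_at and 1440695_at, with deviations of -0.54 and -0.35 in cortex and -0.87 and -0.71 in accumbens, the same sign as its representative. For 4833420G17Rik, 1419636_at was lower, by -1.92 and -0.89, whereas 1430220_at deviated by 0.59 and 0.27. The probe sets that did not pass the filter were mostly at background in every strain. Fxyd2 was the clearest exception, since its dim probe sets 1419378_a_at and 1419379_x_at deviated by 1.44 and 2.18 in cortex and by 2.44 and 2.73 in accumbens, while 1449883_at was flat. For A930005H10Rik, 1441264_x_at and 1457709_a_at deviated by 1.52 and 1.50 in cortex and 0.63 and 0.37 in accumbens, and 1460135_at by 0.17 and 0.21. For Osbpl3, 1438724_at deviated by -0.62 and -0.02, and 1446746_at by -0.04 and -0.02.

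Among dim probe sets of lower genes, Zfp945 probe set 1437127_at was higher in 129S1/SvImJ, by 0.68 in cortex and 1.49 in accumbens, and Slc15a2 probe set 1424730_a_at by 1.43 and 0.51. Cd59a probe set 1429830_a_at was lower, by -0.72 and -0.50, and 4833420G17Rik probe set 1419635_at by -1.0 and -0.56. The second probe sets of Galc (1420547_at and 1449900_at), Pi4kb (1441549_at) and Palm2 (1459377_at) were near 0 in both regions, at most 0.28 away. Those of Lars2 (1439225_at and 1443672_at) and G2e3 (1434699_at and 1455355_at) deviated by between -0.45 and 0.44. The remaining dim ones, 1445673_at of 2900052N01Rik, 1431318_at of 4833420G17Rik, 1441613_at of Zfp40, 1441792_at of Zfp945 and 1438576_x_at of Kantr, stayed close to 0 in cortex, and 1445673_at and 1441613_at deviated by 0.75 and 0.50 in accumbens.

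**Figure D3:**
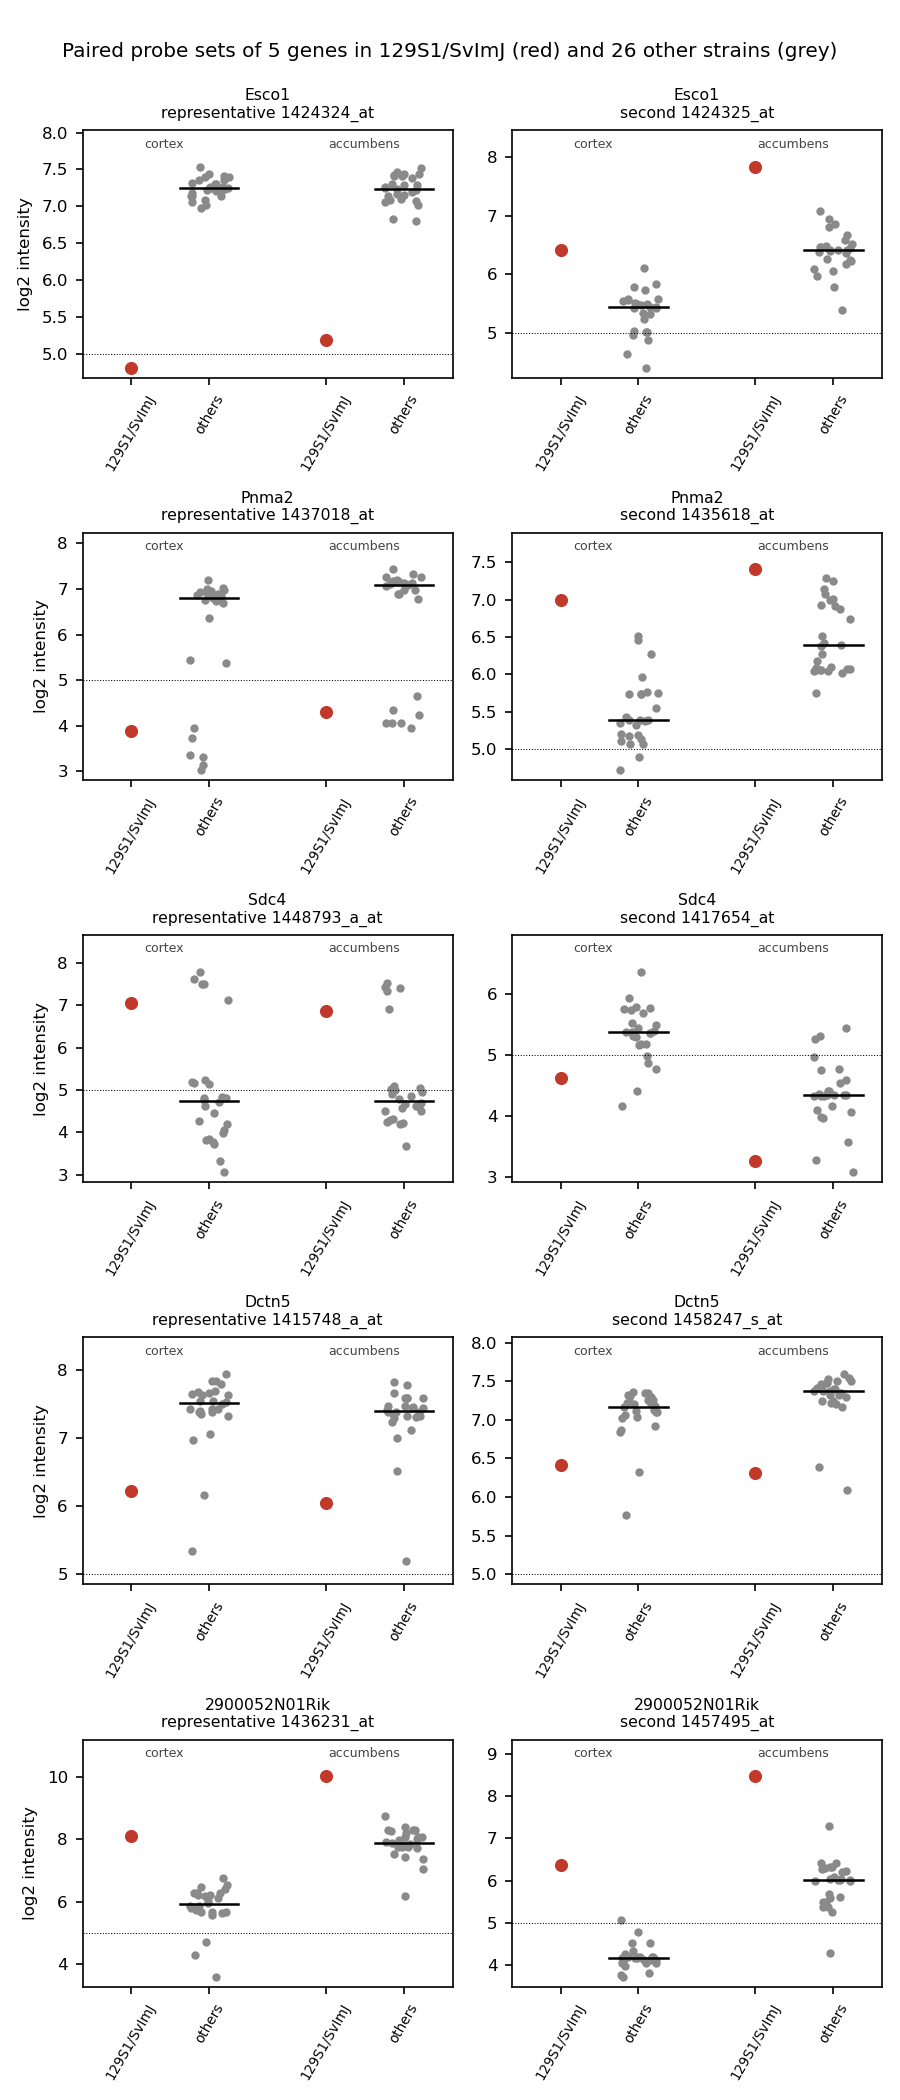
Log2 intensity of both kept probe sets of 5 genes, the representative on the left and the second on the right, in 129S1/SvImJ (red) and the 26 other strains (grey, black line at their median), with the dotted line at log2 5. The red points of the paired panels lie on opposite sides of the grey points for Esco1, Pnma2 and Sdc4, and on the same side for Dctn5 and 2900052N01Rik.

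Sharing with other strains was the rule among the members. Of the 24 higher members 4 were shared by no other strain, with a median of 2 other strains and a maximum of 11. Of the 40 lower members 8 were shared by none, with a median of 3 and a maximum of 10. BTBR T+ tf/J shared 20 of the 64 members with 129S1/SvImJ, KK/HlJ shared 17, and WSB/EiJ 15. In both regions 129S1/SvImJ was the most extreme of 27 in 9 higher and 9 lower members, against 148 of all 10684 features (1.39%), a comparison that the choice of members fixes in part.

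In the RefSeq gene order of assembly GRCm38.p6, some of these genes were neighbours. Tmem267 and 4833420G17Rik were 1 gene apart, and the 6 strains that shared the low level of 4833420G17Rik all shared that of Tmem267. Zfp945 and Zfp40 were 3 genes apart, and all 7 strains that shared the low Zfp945 level were among the 8 that shared that of Zfp40. Dlat and Ppp2r1b, both higher, were 8 genes apart, with 1110032A03Rik, higher in cortex only, between them. Ankrd29 and Osbpl1a, both lower in the accumbens, were 4 genes apart.

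The difference between regions was tested on the accumbens minus cortex value of each strain. In 129S1/SvImJ no feature passed as higher and 2 (0.0187%) passed as lower, at an adjusted p under 0.05 (limma). Without adjustment 304 features (2.85%) had p under 0.05. Osbpl1a, an oxysterol-binding protein of late endosomes, was at 8.12 in the 129S1/SvImJ accumbens, against 9.26, 9.51 and 10.05 in other accumbens arrays. In the cortex it was at 11.33, against 11.03, 11.29 and 11.45, inside the range of the others. The difference of differences was -1.52 (SE 0.23, adjusted p = 0.00278).

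The second Osbpl1a probe set, 1416823_a_at, was at 6.19 in the accumbens of 129S1/SvImJ, against 7.14, 7.85 and 8.46, and at 9.35 in its cortex, against 9.42, 9.77 and 10.19. It was therefore the lowest of 27 in both regions, and further below in the accumbens, by -1.66 against -0.42. Kif22, a kinesin that moves chromosomes, was at 6.35 in the 129S1/SvImJ accumbens, against 7.01, 7.18 and 7.5, and at 7.69 in its cortex, against 6.88, 7.26 and 7.64. This difference of -1.28 (SE 0.18, adjusted p = 0.00142) rested on a probe set of a type prone to cross-hybridisation, and the other probe sets of Kif22, 1423813_at and 1451128_s_at, were at background in every strain.

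A different set of genes moved in 129S1/SvImJ in the cortex alone. In all, 45 features (0.421%) were at least 1 log2 unit higher in cortex with a deviation under 0.5 in accumbens, and 14 (0.131%) were lower. In the accumbens alone, 22 features were higher (0.206%) and 15 lower (0.14%). The cortex-only rule in the other strains gave a median of 15.5 higher features, with a range of 2 to 267 and the most in MA/MyJ. The higher set held 33 named genes, and 129S1/SvImJ was the highest of 27 in the cortex for 37 of the 45 features (7.86% of all features), a count that their choice largely fixes. None of the 59 passed the region difference test after adjustment, while 18 of the higher and 4 of the lower ones had an unadjusted p under 0.05 (2.85% of all features). Their choice uses the same values as that test, so these counts support nothing. A deviation past 1 log2 unit in cortex alone does not show a difference between regions. After centring each array the counts were 34 higher and 19 lower.

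Wwox and Ttr had the largest cortex deviations of the higher set, and the myelin gene Opalin came next. Of the 8 named genes with the largest cortex deviation, Opalin, Mog, Mal and Ugt8a belonged to the list of myelin and oligodendrocyte genes. The remaining named genes in that set were Wwox, Ttr, Anln and Speer4cos. Opalin, a membrane protein of the paranodal loops, was at 7.65 in the 129S1/SvImJ cortex, against 5.03, 5.68 and 6.48, and at 7.04 in its accumbens, against 5.01, 6.89 and 8.32. In cortex 129S1/SvImJ lay above every other strain, 3.91-fold over the median, and in accumbens it was in the middle of them. Mog, a glycoprotein of the outer myelin surface, was at 7.79 in its cortex, against 4.69, 5.94 and 6.94, and at 7.68 in its accumbens, against a median of 7.49. Mal, a proteolipid of compact myelin, was at 9.99 in cortex, against 7.38, 8.19 and 9.19, and at 10.28 in accumbens, against 9.96.

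The promoters of these 3 genes are shown because all 3 genes were high together in the 129S1/SvImJ cortex. Each runs from 250 bases before to 50 bases after the gene's start in RefSeq, GRCm38.p6, 5′ to 3′ on the gene's strand, which is the minus strand for all 3. Opalin is at chr19:41077064-41077363, Mog at chr17:37023349-37023648 and Mal at chr2:127656646-127656945. Capitals mark ACAAAG, a core recognised by SOX factors, of which Sox10 drives oligodendrocyte genes. They are the sequence of the reference strain, not of 129S1/SvImJ.
Opalin: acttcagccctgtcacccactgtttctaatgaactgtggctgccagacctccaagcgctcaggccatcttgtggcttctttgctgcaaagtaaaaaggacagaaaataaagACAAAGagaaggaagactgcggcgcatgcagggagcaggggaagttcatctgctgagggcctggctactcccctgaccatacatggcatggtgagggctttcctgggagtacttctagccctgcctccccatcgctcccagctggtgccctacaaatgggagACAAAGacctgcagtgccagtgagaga
Mog: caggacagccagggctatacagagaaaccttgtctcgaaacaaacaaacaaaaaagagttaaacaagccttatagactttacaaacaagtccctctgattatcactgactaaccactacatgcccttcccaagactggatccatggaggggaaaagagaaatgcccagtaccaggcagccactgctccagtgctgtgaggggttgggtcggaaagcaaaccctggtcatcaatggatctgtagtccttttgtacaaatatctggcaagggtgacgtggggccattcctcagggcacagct
Mal: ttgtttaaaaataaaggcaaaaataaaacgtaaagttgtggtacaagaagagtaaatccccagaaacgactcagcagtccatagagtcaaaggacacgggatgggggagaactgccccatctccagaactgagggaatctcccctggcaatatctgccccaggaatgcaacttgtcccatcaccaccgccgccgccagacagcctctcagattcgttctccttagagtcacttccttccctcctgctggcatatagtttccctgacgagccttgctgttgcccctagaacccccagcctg
The letters ACAAAG or their reverse complement CTTTGT were in 5 of the 16 promoters found for tested myelin genes (31.2%), against 5055 of 27025 promoters in the table (18.7%). Opalin held 2 matches, and Mog and Mal held none in these windows.

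Lipid and adhesion genes of myelin were also at the top of the range in the 129S1/SvImJ cortex. Ugt8a, which makes galactosylceramide, was at 9.15, against 6.20, 7.53 and 8.62, and Fa2h, which hydroxylates its fatty acid, at 7.79, against 5.36, 6.31 and 6.97. Cldn11, the tight junction protein of myelin, was at 8.91, against 6.11, 7.39 and 8.12, and Mag, the adhesion protein next to the axon, at 7.52, against 5.73, 6.25 and 7.15. In each of these 129S1/SvImJ was above all 26 other strains. The structural gene Mobp was at 10.26, against 7.98, 8.82 and 10.18, and Ermn, a cytoskeletal protein of myelin, at 7.17, against 4.90, 5.84 and 7.04. Plekhh1 was at 6.58, against 4.29, 4.99 and 6.01. Mbp, the most abundant of them, was at 13.57, against 12.46, 13.09 and 13.44, a smaller deviation of 0.48.

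Over the whole list of 34 myelin and oligodendrocyte genes, 26 were tested. Gjb1, Nkx6-2 and Gjc3 were not above the filter, and the remaining ones were not analysed here. The median deviation was 1.08 in the 129S1/SvImJ cortex, against 0.07 for all features, and -0.01 in its accumbens, against 0.02. In cortex 14 of the 26 were at least 1 log2 unit higher (53.8%, against 0.852% of all features), and 129S1/SvImJ was the highest of 27 strains in 21 (80.8%, against 7.86%). In accumbens 0 of the 26 were higher by that much (0.562% of all features), and 1, Cryab, was lower (0.636%), with a deviation of -1.09. The 129S1/SvImJ accumbens was the highest of 27 for 0 of the 26 genes (5.56% of all features) and the lowest for 0 (3.1%). None passed the region difference test after adjustment, and 10 of the 26 had an unadjusted p under 0.05 (2.85% of all features). Sox10 and Nfasc were second of 27, and Apod, Cryab and Kif5a were near the medians in the 129S1/SvImJ cortex, with deviations of 0.15, -0.01 and -0.00. The list was chosen with earlier results of these data known, so its counts beside those of all features describe it and support nothing. The list's genes are not independent of each other. In pooled tissue more oligodendrocytes and more RNA per oligodendrocyte cannot be told apart. Nor can the strain be told apart from a cortex wedge that held more of the adjoining corpus callosum.

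**Figure D4:**
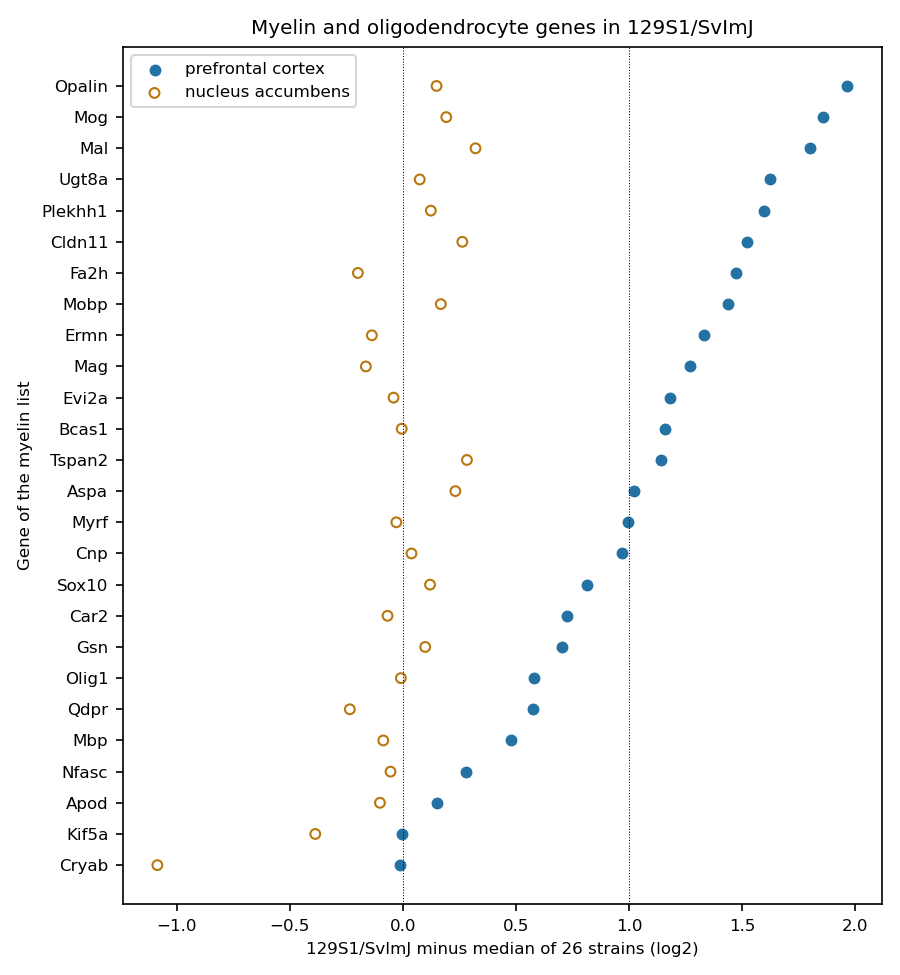
Deviation of 129S1/SvImJ from the median of the 26 other strains, in log2 units (x axis), for the 26 tested genes of the myelin and oligodendrocyte list (y axis, sorted by cortex deviation), in prefrontal cortex (filled) and nucleus accumbens (open); dotted lines mark 0 and 1. Filled points spread from -0.01 to 1.97, while open points lie between -0.39 and 0.32 except that of Cryab.

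Other probe sets of the same genes gave similar medians. There were 25 others above the filter, of 12 genes, with a median deviation of 1.01 in the 129S1/SvImJ cortex. There 13 of the 25 were at least 1 log2 unit higher (0.852% of all features), and 22 deviated by more than 0. In its accumbens their median was -0.01, with 1 at least 1 log2 unit higher (0.562% of all features) and 1 lower (0.636%). They were read on the same arrays, so they are no separate support. Genes of oligodendrocyte precursors deviated less: the 4 tested had a median deviation of 0.50 in the 129S1/SvImJ cortex and 0.07 in its accumbens, and their mean was highest of 27 in cortex.

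The mean of the myelin list placed the 129S1/SvImJ cortex above all other cortex arrays. It was 8.76 in 129S1/SvImJ, against 7.15 to 8.38 with a median of 7.77 in the 26 others, BUB/BnJ being the next. The 129S1/SvImJ accumbens had a list mean of 8.72, against 7.60 to 9.69 with a median of 8.71, the fourteenth of 27. Set against the mean of the others, 129S1/SvImJ was 1.01 higher in cortex, where the others' SD was 0.280 (n = 26), and -0.03 away in accumbens, where it was 0.488. Accumbens minus cortex differed from that of the others by -1.04, with an SD of 0.485 among them. In 129S1/SvImJ the accumbens mean was below the cortex mean, by -0.04, and in MA/MyJ it was further below, by -0.54.

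**Figure D5:**
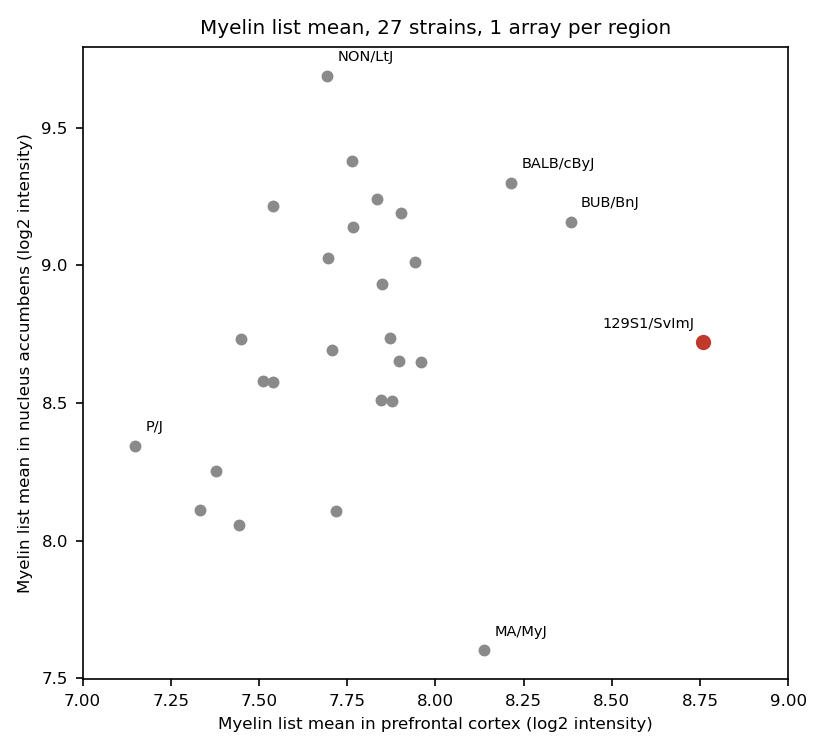
Mean log2 intensity of the 26 tested myelin genes in prefrontal cortex (x axis) and nucleus accumbens (y axis), 1 point per strain, 27 strains, 129S1/SvImJ in red. The 129S1/SvImJ point is the furthest right, at 8.76, and sits in the middle of the y axis, at 8.72.

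The other leading genes of the cortex-only set were not on the myelin list. Wwox, an oxidoreductase with WW domains, was at 8.89 in the 129S1/SvImJ cortex, against 5.03, 5.53 and 7.81, and at 4.71 in its accumbens, against 4.56, 4.64 and 5.93. It was 10.3-fold above the cortex median (unadjusted region difference p = 0.00491, adjusted p = 1). Ttr, the thyroxine carrier of the choroid plexus, was at 5.40 in cortex, against 3.01, 3.19 and 10.53, so that another strain was far above 129S1/SvImJ. Anln and Speer4cos were at 4.65 and 5.43 in cortex, against medians of 2.75 and 3.83, near or below the filter, and at 5.29 and 6.26 in accumbens, against 5.39 and 5.77. Of the 14 lower features, 5 were named: Krt12, Herc6, Myl4, Fam81a and Cntfr. Fam81a was the brightest, at 9.21 in the 129S1/SvImJ cortex, against 9.50, 10.24 and 10.97, and at 7.70 in its accumbens, against a median of 7.81.

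Markers of other cell types deviated less than the myelin genes in the 129S1/SvImJ cortex, where the list mean ranked 2 of 27 for cortical excitatory neurons, 3 for interneurons and 4 for astrocytes. Their part in the myelin values was not tested. Cortical excitatory neuron genes had a median deviation of 0.13 over 14 genes, with Neurod6 at 9.72 against a median of 9.21 and Tle4 at 8.16 against 7.72. Interneuron genes had a median of 0.11 over 9 genes, with Gad2 at 8.22 against 7.69 and Slc32a1 at 8.01 against 7.60. Spiny neuron genes, which mark striatum, had a median of 0.03 over 16 genes, with Penk at 8.08 against 7.33 and Ppp1r1b at 6.52 against 6.12, both second of 27 after MA/MyJ. Microglial genes had a median of -0.01 over 11 genes, with C1qc at 5.64 against 4.72 and C1qa at 6.91 against 7.35, and endothelial and mural genes a median of -0.12 over 8, with Vtn at 7.71 against 8.33 and Flt1 at 6.26 against 6.58. None of the blood genes listed was bright enough to be tested. The 3 antigen presentation genes tested lay within 0.19 of the cortex medians.

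Of the 12 tested genes with known strain variants, Galc and Glo1 were furthest from the median in cortex. Glo1, which detoxifies methylglyoxal and lies in a segment duplicated in some strains, was at 10.30 in the cortex and 10.17 in the accumbens of 129S1/SvImJ, against 8.43, 8.90 and 10.79, and 8.64, 9.24 and 11.15. It passed the contrast (0.90 higher, limma adjusted p = 5.02e-06), and 3 other strains were higher in cortex.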

How the data were processed

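Gene expression was measured on 1-colour arrays in prefrontal cortex and nucleus accumbens of inbred mice. Each deposited value is the linear intensity of a probe set, made with GCRMA, per the submitters' processing notes (version not given in the sources used here). GCRMA corrects background, normalizes arrays to a common distribution and summarises the probes of each probe set, and its background model compresses dim probe sets toward a floor. Scanner files were not used here, and depth of signal was judged from the values alone.

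Of 45015 probe sets, 64 controls were left out. The platform's gene table gave 1 symbol for 34880, several for 923 and none for 9148, and only those with 1 symbol were named. Values were log2-transformed, adding no pseudocount. Probe sets were kept if above log2 5 on at least 13 of the 54 arrays of the 27 strains with both regions, and the brightest kept probe set represented its gene, which left 10684 features. Where a group was below log2 5, its fold is a bound against that level.

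A deviation is the 129S1/SvImJ value minus the median of the other 26 strains in the same region, so a scaling that differs between regions cancels. The limma 3.58.1 fits (lmFit and eBayes, R 4.3.3) used Benjamini-Hochberg adjustment over all features and a threshold of 0.05. The contrast set 129S1/SvImJ against the mean of the other strains with region and strain terms, since the design text says that 1 set of brains gave both regions of a strain. The stricter test used 1 mean per strain. The region test used 1 accumbens minus cortex difference per strain.

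Named genes were up to 12 members in each direction by the smaller deviation with values raised to log2 5, members with at least 2 kept probe sets, up to 8 cortex-only genes in each direction, up to 10 myelin genes and up to 2 of each other list. The remaining members and every call of the stricter test and the region test were named after their values were seen. The members and the 13 gene lists were chosen with earlier results of these data known. Promoters came from the RefSeq table. The contrast and the region test were checked on simulated data that held no spread between strains, and the stricter test was not checked in this way. The alternatives were other filters, thresholds, scalings and probe set choices, no strain block and fewer strains. Tables and plots used matplotlib 3.10.9, scipy 1.17.1, pandas 2.3.3 and numpy 2.4.6 in Python 3.11.15.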

Additional observations from a re-analysis of the deposited data

Results flagged for a closer look

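Osbpl1a and Kif22 are listed because the accumbens minus cortex difference of 129S1/SvImJ differed from that of the other 26 strains by a test of that difference itself (limma, adjusted over all features). For Osbpl1a it differed by -1.52 (SE 0.23, adjusted p = 0.00278), with the accumbens array of 129S1/SvImJ below all 26 others and its cortex array inside their range. For Kif22 it differed by -1.28 (SE 0.18, adjusted p = 0.00142), with the 129S1/SvImJ accumbens below and its cortex above all 26 others. The Kif22 probe set is of a type prone to cross-hybridisation, and the part of this in the result was not tested.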

How the results depend on the processing

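The median deviation of the myelin genes stayed between 0.995 and 1.14 in cortex and between -0.055 and -0.0037 in accumbens under every alternative run for it. With no filter, 45 features were higher in both regions, 86 higher in cortex only and 337 higher in the contrast, and the region test called 46 higher and 35 lower. A filter at log2 7, which leaves fewer features, gave 9 higher and 18 lower in both regions, 20 and 4 in cortex only, and 101 and 72 in the contrast. Every kept probe set gave 59 and 70 in both regions and 35 lower in cortex only, and values raised to log2 5 gave 20 and 8 lower. A threshold of 1.5 log2 units gave 12 and 20 in both regions and 13 and 3 in cortex only. The contrast called 126 higher after quantile normalization, 112 higher and 213 lower after centring, 360 higher without the 5 strains, and 77 and 68 at a threshold of 0.01. With no replicate block, that is without strain as a term, it called 25 and 22, and with the spread of strain means as the error 7 and 8. Of the named genes that passed the contrast, 23 lost their call with no replicate block and 15 kept it. Against the spread of strain means 28 lost it and 10 kept it. Genes named because they passed that stricter test are among the 10, so their choice largely fixes this count. Among the named members only Esco1, Ankrd29 and Lars2 kept their call there. Without probe sets prone to cross-hybridisation the region test called 1 lower, the Sdc4 contrast was -0.92 (adjusted p = 0.0121) and that of Kantr 0.36 (adjusted p = 0.255), since another probe set then stood for each gene, and the contrast calls of Adgrl3 (0.53, adjusted p = 0.0985), 4833420G17Rik (-0.89, 0.0739) and Serpina3n (1.67, 0.0524) were lost. With 1 pool per strain and region, no replicate of 129S1/SvImJ could be left out, and dim probe sets carry only bounds.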

Other observations

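Immediate early genes, which neurons switch on within minutes of activity, lay mostly below the strain medians in both regions of 129S1/SvImJ. The 11 tested had a median deviation of -0.54 in its cortex, against 0.07 for all features, and -0.66 in its accumbens, against 0.02. Fos, the best known of them, was at 8.90 in the cortex of 129S1/SvImJ, against 8.37, 9.57 and 11.11 in the others (lowest, median and highest), and at 5.87 in its accumbens, against 5.36, 7.61 and 9.18. It was the only one of the list to pass the contrast (difference -1.23, limma adjusted p = 0.0021), which called 1.18% of all features lower. For Fos, 129S1/SvImJ stood at the low end without leaving the range of the other strains. Nr4a1, a nuclear receptor gene of the same kind, was at 8.50 and 7.91 in cortex and accumbens of 129S1/SvImJ, against medians of 9.44 and 8.59. The list mean ranked 24 of 27 in cortex and 25 of 27 in accumbens, counted from the top.

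Some genes of choroid plexus and meninges, which line the brain's surfaces and ventricles, were high in the accumbens array of 129S1/SvImJ. Ptgds, which makes prostaglandin D2, was at 13.76 there, against 9.36, 11.58 and 13.36, the highest of 27, and at 13.62 in its cortex, against a median of 13.53. Igf2, a growth factor of the meninges, was at 6.78 in its accumbens, against 4.71, 5.45 and 6.92. The list mean of the 7 tested genes was 6.59 in the 129S1/SvImJ accumbens, against 4.98, 5.91 and 6.77, the second of 27. Among the accumbens-only features, named after their values were seen, Slc6a20a, a proline transporter of meninges and choroid plexus, was at 6.13 in 129S1/SvImJ, against 2.81, 3.61 and 4.95, and at 6.23 in its cortex, against a median of 6.24. Rab3b, a synaptic vesicle GTPase, was low, at 5.28 in its accumbens, against 5.70, 6.98 and 8.14. The region test called none of these after adjustment. The accumbens-only rule gave 37 features in 129S1/SvImJ, against a median of 51.5 in the other strains and a range of 18 to 1455.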
